A study of Drosophila melanogaster with 5 samples.

Results

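The vacuolar ATPase (V-ATPase) subunit genes were taken as all genes whose symbol begins with Vha, and 33 of the 16427 genes shared by the deposited tables matched. RNA was measured by RNA-seq in the central nervous system (CNS) of Drosophila larvae of the third instar, aged 84 h after egg laying, with about 15 CNS pooled in each library. The 3 control libraries carried the hairpin UAS-dsitpr against the inositol 1,4,5-trisphosphate receptor (IP3R) and UAS-dicer, each over a wild-type chromosome and with no GAL4. The 2 IP3R knockdown libraries carried both of these and, in addition, ElavC155GAL4 over a wild-type chromosome. That driver acts in neurons and is named in the sample labels and in a figure legend of the study, whereas the study's methods name VGN6341-GAL4 for the RNA-seq. The labels were followed here. Non-neuronal cells of the CNS were present in every library, and in such bulk samples fewer cells of a type and less RNA per cell cannot be told apart.

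The V-ATPase is a rotary proton pump. Its V1 sector, in the cytosol, burns ATP, and the rotation this produces drives protons through the V0 sector, which is embedded in the membrane. The pump acidifies endosomes, lysosomes and secretory granules, and in neurons it charges synaptic vesicles with the proton gradient that transmitter uptake uses. Drosophila encodes several subunits in more than 1 gene, and many of the extra copies are known for expression restricted to tissues such as the testis or the gut. Of the 33 members, 13 encode V1 subunits, 18 encode V0 subunits and 2 encode accessory proteins.

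Levels are given in different units for comparing genes and for comparing libraries. FPKM (fragments per kilobase of transcript, scaled to sequencing depth) was deposited as 1 value per group and allows levels of different genes to be set side by side. Reads per gene in each of the 5 libraries were recovered from the deposited group means. For 1 gene across libraries they are given as reads per 1000000 of the library's effective size (CPM). That size was the recovered reads times a composition factor. The factor was 0.9658, 0.9675 and 0.983 in the controls and 1.0629 and 1.0243 in the knockdown libraries, so CPM is not a plain share of the reads. The recovered libraries could not be matched to replicate numbers, so they are called control a to c and knockdown a and b. They held between 10.4 and 14.5 M reads. Control c and knockdown b were the shallower libraries, and control c stood apart from the other controls, with a median absolute log2 difference of 0.19 from control a and 0.19 from control b over all genes tested, beside 0.07 between control a and b. The target, Itp-r83A, had 285, 260 and 196 CPM in the controls and 163 and 160 CPM in the knockdown libraries, lower in both (log2 fold change -0.58, SE 0.16, limma adjusted p = 0.101). Dcr-2, the gene carried by UAS-dicer, was higher in both knockdown libraries (log2 fold change 1.67, limma adjusted p = 0.0305). Of neuronal markers, 6 of 7 were found, and their summed level was 1670 to 1690 CPM in the controls and 1218 and 1450 CPM in the knockdown libraries. The size of the difference varied among these 6. Log2 fold changes were -0.97 for brp, -0.47 for elav, -0.30 for VGlut, -0.26 for Syt1, -0.06 for nSyb and -0.04 for Gad1. The exons of brp and elav sum to 13371 and 10715 bases, the longest of these markers. All 3 glial markers were found, with sums of 606 to 651 CPM in the controls and 557 and 616 CPM in the knockdown libraries. The Malpighian tubule is a tissue rich in V-ATPase. The 6 genes listed as its markers summed to 45.2 to 47.2 CPM in the controls and 46.3 and 35.0 CPM in the knockdown libraries. Whether each of them is restricted to this tissue was not tested, so the sum is not a measure of the tissue. Most of each sum was Lkr, with 32.3, 33.9 and 33.4 CPM in the controls and 27.7 and 25.7 CPM in the knockdown. Each of the other markers was at or below 7.8 CPM in every library, and Uro and Oatp58Db at or below 1.3 CPM. The part of this tissue in the Vha levels was not tested.

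The members fell into separate tiers of abundance. With a line drawn at a control FPKM of 10, 20 members were abundant, at 38.3 to 150 FPKM in the controls with a median of 120, and 13 were not. The highest of those 13 was VhaPPA1-2 at 1.44 FPKM, and the other 12 were at or below 0.601 FPKM. No member lay between 1.44 and 38.3 FPKM, and every subunit of both sectors had at least 1 abundant gene. The abundant set held 10 V1 genes, 8 V0 genes and both accessory genes. Over all 13760 genes with values above 0, the median control FPKM was 30.3 and the 95th percentile was 135, and 7.27% of genes exceeded the median of the abundant members.

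**Figure D1:**
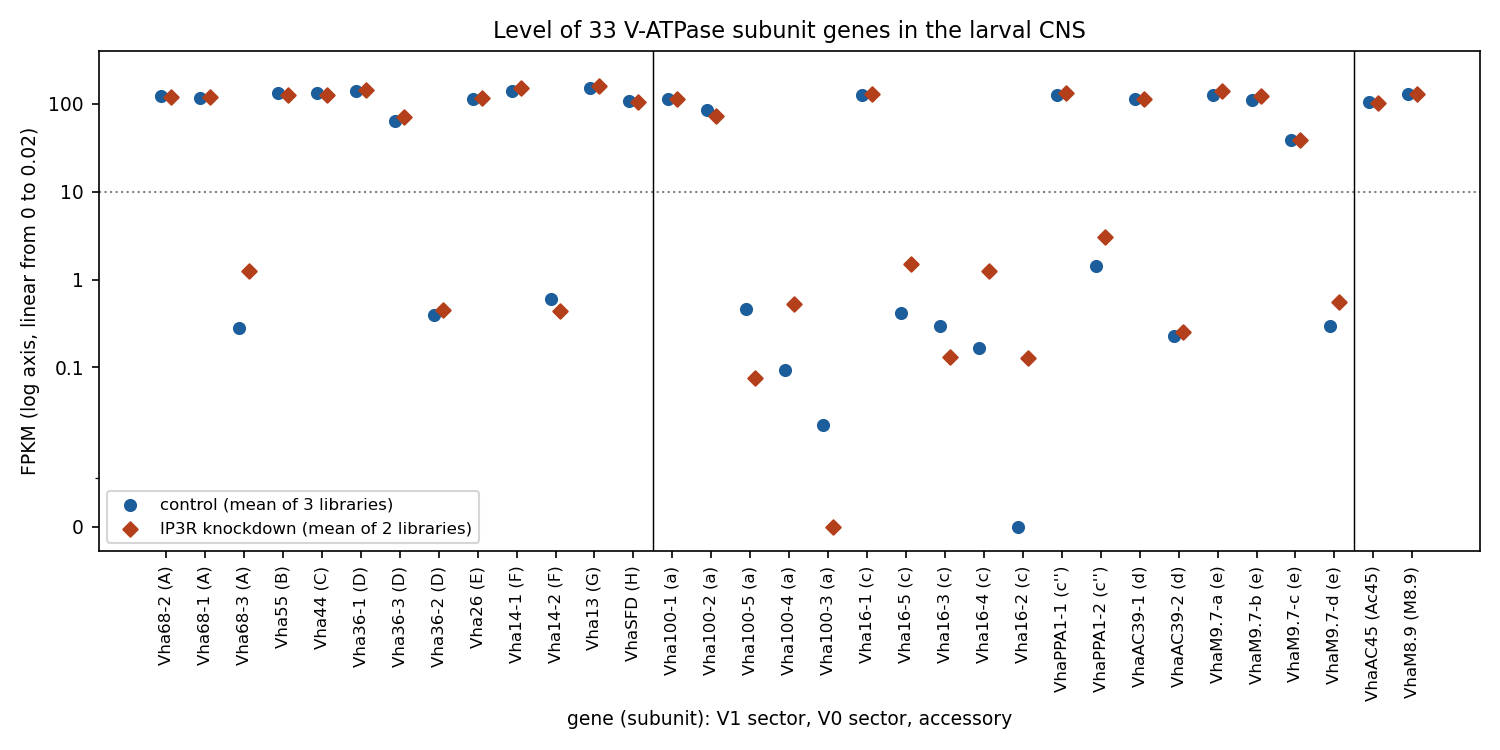
FPKM of each of the 33 members (log axis, linear near 0) in control (circles) and IP3R knockdown (diamonds), 1 deposited group mean each, arranged by sector and subunit. The 20 abundant members lie above the dotted line at 10 FPKM and the other 13 lie at or below 3.05 FPKM in both groups.

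Within V1, the catalytic head is built from alternating A and B subunits. The A subunit, which binds and hydrolyses ATP, had Vha68-2 at 123 FPKM and Vha68-1 at 117 FPKM in the controls, with 119 and 118 FPKM in the knockdown. The B subunit has a single gene, Vha55, at 132 and 126 FPKM. The rotor of V1 is made of D and F. Vha36-1 (D) was at 140 and 142 FPKM, the second D gene Vha36-3 was at 62.9 and 70.8 FPKM, and Vha14-1 (F) was at 138 and 151 FPKM. The peripheral stalks that hold the head still contain E and G. Vha26 (E) was at 113 and 117 FPKM and Vha13 (G) was the highest of all members, at 150 and 159 FPKM. Subunits C and H join the stalks to the membrane sector, and C is released when the pump comes apart. Vha44 (C) was at 131 and 124 FPKM and VhaSFD (H) at 107 and 105 FPKM. Thus the 5 V1 subunits with 1 gene each lay within the range of 105 to 159 FPKM in both groups.

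Within V0, subunit a holds the half-channels for protons and directs the pump to particular membranes. Vha100-1, known in flies for its role at synapses, was at 112 FPKM in the controls and 113 FPKM in the knockdown, and Vha100-2 was at 85.0 and 72.2 FPKM. The ring that turns against subunit a is built from c and c''. Vha16-1 (c) was at 125 and 130 FPKM and VhaPPA1-1 (c'') at 125 and 131 FPKM. VhaAC39-1 (d), which caps the ring, was at 112 FPKM and 113 FPKM. The small membrane subunit e was the only V0 subunit with 3 abundant genes, VhaM9.7-a at 124 and 139 FPKM, VhaM9.7-b at 111 and 121 FPKM, and VhaM9.7-c at 38.3 and 39.0 FPKM. The accessory genes were at 104 and 102 FPKM (VhaAC45) and at 127 and 130 FPKM (VhaM8.9). VhaM8.9 is listed as ATP6AP2 in the current annotation and is the fly relative of the mammalian prorenin receptor. Genes called Vha only in newer annotation were not members. Of these, CG31030 was at 114.7 and 119 FPKM, within the abundant range, and CG5421 was at 0.297 and 0.0294 FPKM.

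The levels of the abundant members were close to one another. In the controls, 17 of the 20 were at or above 100 FPKM, and the highest of these exceeded the lowest by 1.45 times. The typical spread between control libraries was 10.6% (median SD as a percentage of the mean over the 20 members, n = 3). In the order of control FPKM, the gap was smaller than this for 16 of the 19 pairs of neighbours. For 17 of the 20 members control c and knockdown b were the highest libraries, so part of the spread was a shift that members shared. A shared shift leaves the order within a library unchanged, so the spread does not measure how firm that order is. The larger gaps lay at the bottom of the order. There VhaAC45 at 104 FPKM was followed by Vha100-2 at 85.0, Vha36-3 at 62.9 and VhaM9.7-c at 38.3 FPKM. Other large complexes lay at other heights. The 8 mitochondrial ATP synthase genes ranged from 167 to 198 FPKM with a median of 173. The 33 proteasome genes at or above 10 FPKM ranged from 18.2 to 165 FPKM with a median of 142, and the 85 cytosolic ribosomal protein genes at or above 10 FPKM from 15.2 to 345 FPKM with a median of 203. Duplicate reads were removed before counting, which can lower high values more than low ones, so these heights are not a stoichiometry.

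No abundant member differed between the groups by the test across all genes. In limma on the recovered reads, 0 of the 20 had an adjusted p under 0.05 in either direction, and 1 of the 20 had an unadjusted p under 0.05. For comparison, 1.54% of the 9346 genes tested were called lower in the knockdown and 0.182% were called higher, and 24.1% had an unadjusted p under 0.05. The log2 fold changes of the 20 members ran from -0.23 to 0.19 with a median of 0.02, beside a median of 0.03 over all genes tested, and 14 of the 20 were above 0. The 95% intervals contained 0 for 19 of the 20. All 20 intervals lay between -0.42 and 0.61 on the log2 scale, so a 2-fold difference was outside each of them.

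**Figure D2:**
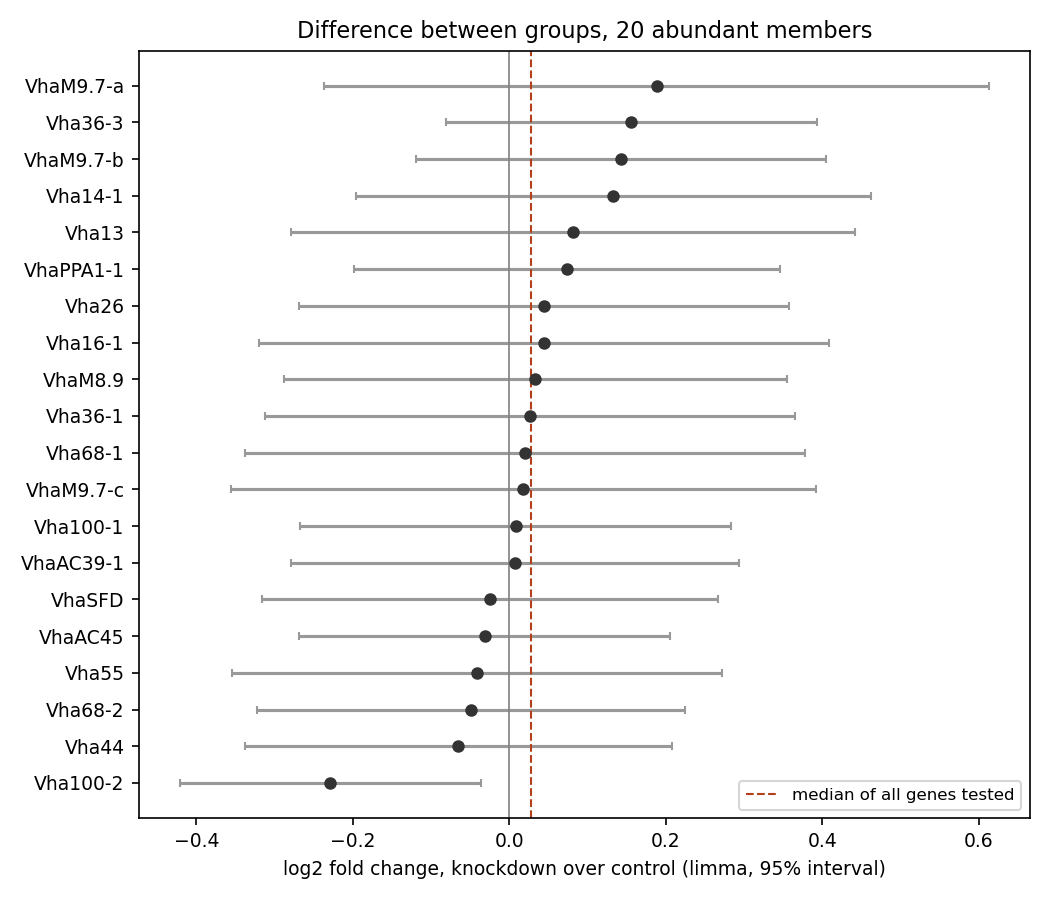
Log2 fold change of the 20 abundant members, IP3R knockdown over control, with 95% intervals from limma (3 and 2 libraries). The dashed line is the median of all genes tested, and only the interval of Vha100-2 leaves out 0.

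On the deposited group means the same members differed little. The FPKM ratios of knockdown over control ran from 0.850 (Vha100-2) to 1.13 (Vha36-3), and the ratios of mean normalized counts were lowest for Vha100-2 (0.859) and highest for VhaM9.7-a. The median log2 ratio was 0.02 by FPKM and 0.03 by normalized counts, beside 0.02 and 0.03 over the 8922 genes at or above 10 FPKM. A difference of 25% or more in both tables was found for 0 abundant members in either direction, beside 12.7% of genes at this level that were lower and 6.1% that were higher.

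Vha100-2 was the abundant member whose groups stood furthest apart. It had 241, 244 and 239 CPM in control a, b and c and 210 and 202 CPM in knockdown a and b. Both knockdown libraries lay below all 3 controls, and it was the only abundant member without overlap. The log2 fold change was -0.23 (SE 0.08, limma adjusted p = 0.154), which did not pass the test over all genes. Groups that did not overlap, with the knockdown lower, were found for 24.6% of the 9346 genes tested. With each library left out in turn the log2 fold change lay between -0.26 and -0.20, and with library depth as a covariate it was -0.23 with an adjusted p of 0.0568. Vha100-2 lies on chromosome 3R (18390323 to 18399169, minus strand, dm6), where Vti1b overlaps it on the other strand without sharing exon bases.

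The other abundant a gene, Vha100-1, had 321, 324 and 358 CPM in the controls and 310 and 363 CPM in the knockdown libraries. The groups overlapped fully, with a log2 fold change of 0.01 (SE 0.11, limma adjusted p = 0.971). Within each library, the ratio of Vha100-2 to Vha100-1 per kilobase of exon was 0.768, 0.767 and 0.681 in the controls and 0.694 and 0.569 in the knockdown. Knockdown a lay inside the control range and knockdown b below it. Mean ratios were 0.739 ± 0.050 (SD, n = 3) and 0.631 ± 0.088 (SD, n = 2). An exact two-sided permutation test over the 10 splits gave p = 0.4, where 0.2 is the smallest p that this form of the test can give.

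**Figure D3:**
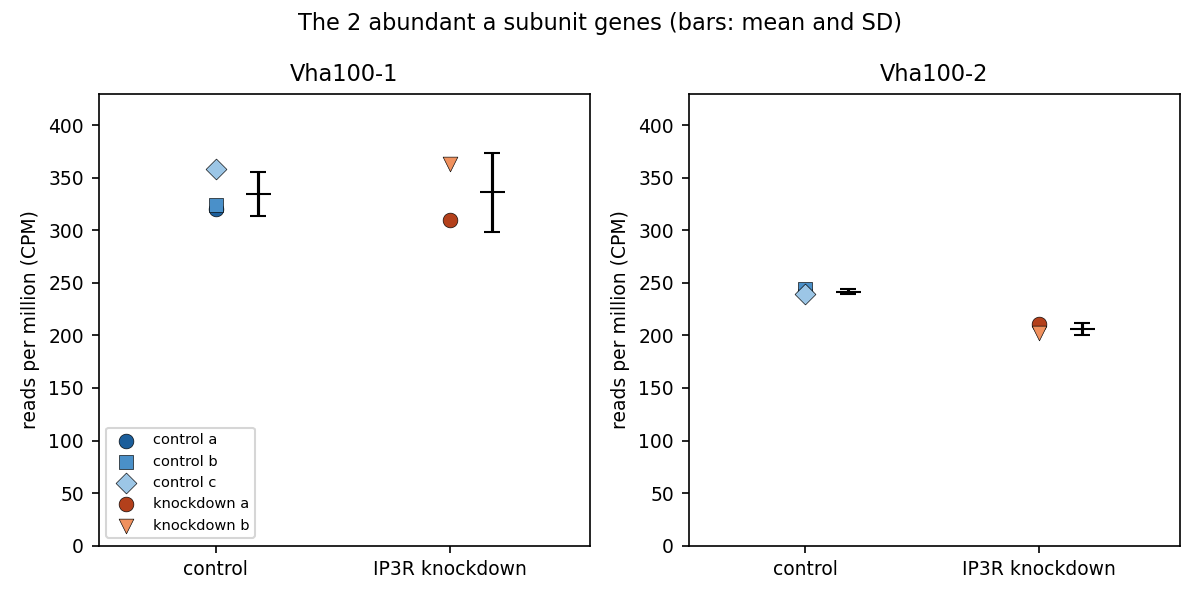
CPM of Vha100-1 and Vha100-2 in each library (points), with the mean and SD of each group beside them. The Vha100-2 points are 239 to 244 CPM in the controls and 202 and 210 CPM in the knockdown, while the Vha100-1 points of the groups overlap.

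For the other subunits with several abundant genes, the ranges of the ratios overlapped between groups. Vha68-1 to Vha68-2, both A subunits, had ratios of 0.983, 0.988 and 1.07 in the controls and 1.02 and 1.105 in the knockdown. Vha36-3 to Vha36-1, both D subunits, had ratios of 0.478, 0.489 and 0.438 in the controls and 0.569 and 0.453 in the knockdown. The e genes VhaM9.7-b and VhaM9.7-a had a ratio of 1.07, 1.04 and 0.930 in the controls and 1.06 and 0.903 in the knockdown. For VhaM9.7-c to VhaM9.7-a the ratios were 0.648, 0.571 and 0.385 against 0.566 and 0.382. Over the 5 pairs compared, exact permutation p was 0.4 or 0.6, each 0.6 after Benjamini-Hochberg adjustment. Since 0.2 is the smallest p that this form of the test can give with 3 against 2 libraries, these tests could not detect a change in balance. They do not show that the balance was alike.

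The largest positive values belonged to VhaM9.7-a and Vha36-3. VhaM9.7-a had 33.1, 36.1 and 46.4 CPM in the controls and 38.4 and 49.0 CPM in the knockdown libraries, with a log2 fold change of 0.19 (SE 0.18, limma adjusted p = 0.555). Control c exceeded knockdown a, so the groups overlapped. Vha36-3 had 60.4, 61.5 and 70.2 CPM in the controls and 72.0 and 69.2 CPM in the knockdown libraries (log2 fold change 0.16, SE 0.10, limma adjusted p = 0.375). There, control c lay between the knockdown libraries. Without control c its log2 fold change was 0.22, with a limma adjusted p of 0.122. VhaM9.7-b (0.14) and Vha14-1 (0.13) came next, and neither passed the test.

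The differences between libraries of a group were larger than those between groups. In 17 of the 20 abundant members the highest CPM were in control c and knockdown b, the shallower library of each group, beside 25.4% of all genes tested. Vha13, for example, had 79.6, 82.2 and 103 CPM in control a, b and c and 82.4 and 104 CPM in knockdown a and b. Its reads, however, were nearly equal, at 1118, 1110, 1056, 1180 and 1106 in the same order. VhaM9.7-a had 465, 488 and 476 reads in the controls and 550 and 520 in the knockdown, although the deepest library held 14.5 M reads and the shallowest 10.4 M. The median deviation of the 20 members from their own mean, in log2 CPM, was -0.12, -0.07 and 0.16 in the controls and -0.11 and 0.13 in the knockdown. Over all genes tested, these medians lay between -0.03 and 0.02. The difference between the group means was below the control SD for 18 of the 20 members.

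The 3 exceptions were Vha100-2, Vha36-3 and VhaM9.7-c, the same members that had the lowest FPKM of the 20. VhaM9.7-c had 25.6, 24.7 and 21.4 CPM in the controls and 26.0 and 22.3 CPM in the knockdown, lowest in the shallower library of each group. It lies within Teh2 on the same strand (chromosome 3L, 4186018 to 4186865, minus strand) and shares no exon bases with it. Other abundant complexes had the same pattern between libraries. Ribosomal protein genes summed to 8194, 8509 and 10865 CPM in the controls and 8364 and 10816 CPM in the knockdown. Mitochondrial ATP synthase genes summed to 1083, 1124 and 1434 CPM against 1097 and 1411 CPM. The abundant Vha members summed to 3314, 3399 and 3942 CPM against 3283 and 3806 CPM. As a plain share of the recovered reads they made up 0.320%, 0.329% and 0.387% in the controls and 0.349% and 0.390% in the knockdown. The part of depth or duplicate removal in this was not tested.

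Comparing libraries of like depth left little between the groups. Knockdown b minus control c gave a median log2 difference of -0.03 over the 20 members, with 8 above 0 and 12 below. Knockdown a minus the mean of control a and b gave -0.01, with 9 above 0 and 11 below. Vha100-2 was lower in both pairings, by -0.24 and -0.21. Vha36-3 was -0.02 in the shallower pairing and 0.24 in the deeper one. Each pairing has 1 knockdown library, so these are values without a test.

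**Figure D4:**
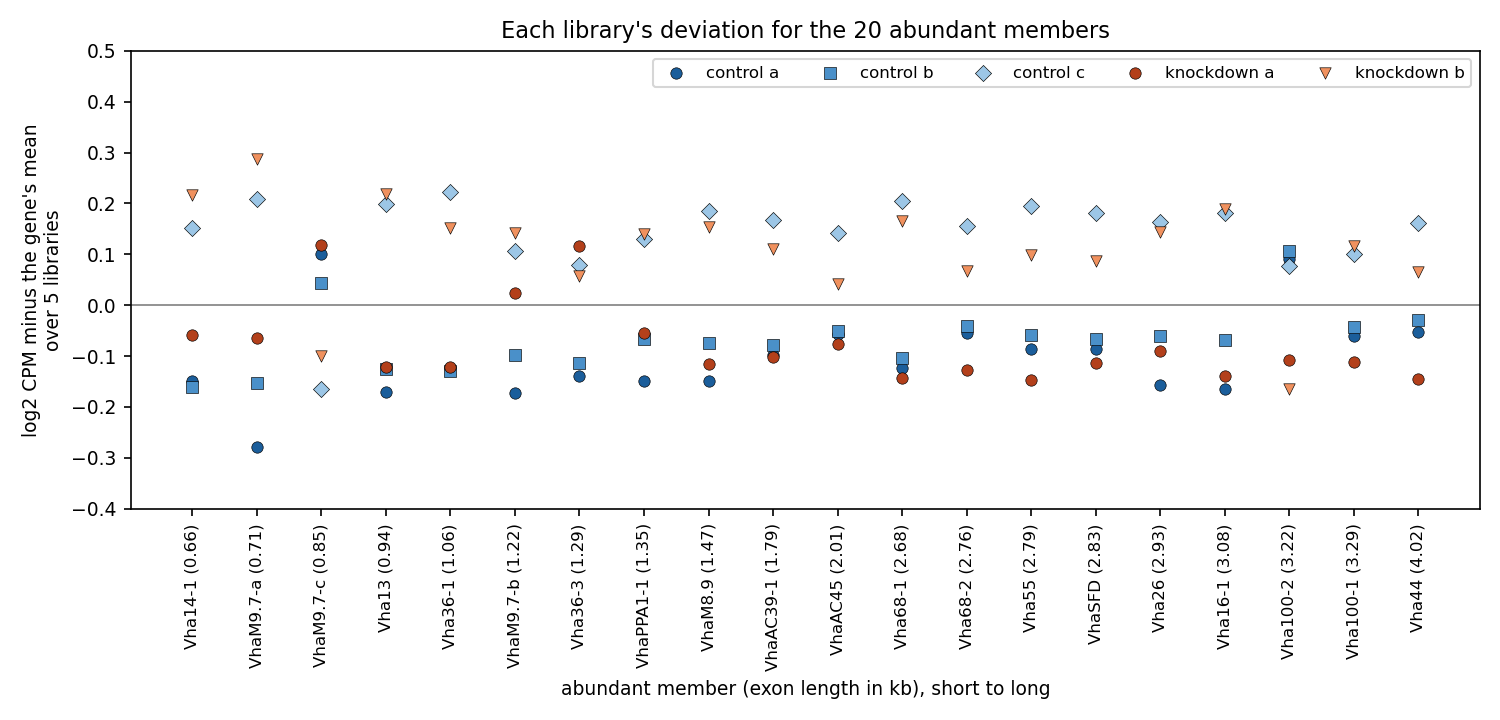
Log2 CPM of each of the 20 abundant members in the 5 libraries, as the deviation from the member's own mean, ordered by exon length. Control c and knockdown b lie above the other libraries for 17 members and not for Vha100-2, Vha36-3 and VhaM9.7-c.

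The small group differences ordered with exon length. Over the 20 abundant members, whose exons sum to 659 to 4023 bases, the log2 fold change and log2 exon length had a Pearson r of -0.70 and a Spearman rho of -0.67, as a description across genes of the same libraries. All 7 members under 1300 bases were above 0, with a median of 0.13, and the 9 members of 2500 bases or more had a median of -0.02, with 4 above 0. All genes tested showed the same order, with medians of 0.13 under 1300 bases, 0.08 from 1300 to 2500 bases and -0.15 at 2500 bases or more. The genes nearest to Vha100-2 in exon length had a median log2 ratio of normalized counts of -0.06, and those nearest to Vha36-3 had 0.15. Whether RNA integrity or fragment length gave this order was not tested.

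The 13 members below 10 FPKM had 56 to 104 reads in all in each control library and 85 and 132 in the knockdown libraries, beside 40388 to 47004 for the 20 abundant members. They were Vha68-3 (A), Vha36-2 (D), Vha14-2 (F), Vha100-3, Vha100-4 and Vha100-5 (a), Vha16-2, Vha16-3, Vha16-4 and Vha16-5 (c), VhaPPA1-2 (c''), VhaAC39-2 (d) and VhaM9.7-d (e). None entered the limma test, because none passed the filter on low counts. In each of these subunits the abundant genes supplied nearly all of the summed level. In the controls, Vha16-1 made up 99.3% of the FPKM of the c genes, Vha14-1 99.6% of F, VhaAC39-1 99.8% of d and VhaPPA1-1 98.9% of c''. In the knockdown these shares were 97.7%, 99.7%, 99.8% and 97.7%.

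All differences of 25% or more among the members were in these low genes. Of the 31 members with values above 0 in both groups, 3 were lower in both tables, beside 16.7% of all 13760 genes, and 6 were higher, beside 16.9%. The 3 lower were Vha100-5, Vha16-3 and Vha14-2, and the 6 higher were Vha100-4, Vha16-4, Vha16-5, Vha68-3, VhaPPA1-2 and VhaM9.7-d. These counts rest on few reads, and leaving out knockdown b, with the FPKM table kept as deposited, reduced them to 1 lower and 4 higher. When the low genes were tested without the filter, 0 of the 13 had a limma adjusted p under 0.05. In that fit 196 of all 15578 genes were called lower and 52 higher. An unadjusted p under 0.05 was found for 3 of the 13 (Vha16-4, Vha100-4 and Vha16-5). In the filtered fit 24.1% of the 9346 genes had such a p, so these 3 do not stand out.

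Vha100-4, known in flies from the acid-secreting region of the larval midgut, had 4, 6 and 0 reads in the controls and 9 and 23 in the knockdown. Both knockdown libraries lay above the controls in CPM, and knockdown b held most of the reads. The ratio of summed depth-scaled reads was 4.85, with a 95% exact interval of 2.33 to 11.1 that covers counting error only (without the filter, limma adjusted p = 0.206). The 5 midgut markers summed to 21.3 to 31.5 CPM in the controls and 33.4 and 21.6 CPM in the knockdown, with knockdown b near the bottom of this range. Their part in the reads of Vha100-4 was not tested. Vha100-4 lies 517 bases beyond the 3′ end of Vha100-2 on the same strand.

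Vha100-5 had 32, 32 and 2 reads in the controls and 3 and 9 in the knockdown. Control a and b were high and control c was as low as the knockdown libraries, so the groups overlapped. The ratio of summed depth-scaled reads was 0.276, with an interval of 0.136 to 0.514 for counting error only. Markers of fat body did not share one pattern. Lsp2, a larval storage protein, had 193, 176 and 0.780 CPM in the controls and 61.3 and 4.71 CPM in the knockdown, and Fbp2 was likewise low in control c, at 42.4, 41.0 and 0.683 CPM in the controls. In contrast, the storage protein gene Lsp1beta was highest in control c (333, 344 and 452 CPM), Lsp1alpha had 268, 267 and 176 CPM, and Fbp1 was below 1 CPM in every library. The 5 fat body markers summed to 630 to 838 CPM in the controls and 491 and 135 CPM in the knockdown, and none was at 0 in all libraries. The 9 salivary gland markers summed to 263 to 280 CPM in the controls and 4.26 and 5.75 CPM in the knockdown. Among these, the glue protein gene Sgs3 had 43.7, 34.2 and 0.0975 CPM in control a, b and c, whereas ng1 (52.6, 54.0 and 75.5 CPM), ng2 (57.1, 58.7 and 83.1 CPM) and ng3 (70.9, 71.5 and 100.9 CPM) were highest in control c. The part of adhering tissue in the level of Vha100-5 was not tested. An antisense RNA, asRNA:CR44144, shares 527 bases (18.1%) of its exons, and reads of the strands cannot be told apart unless counting used strand, which is not given in the sources used here.

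Of the extra proteolipid genes, Vha16-4 had 1, 0 and 1 reads in the controls and 5 and 6 in the knockdown, and Vha16-5 had 4, 3 and 1 against 6 and 11. For both genes the knockdown libraries lay above the controls in CPM. The ratios of summed depth-scaled reads were 8.34 (95% exact interval 1.82 to 77.4) for Vha16-4 and 3.22 (1.32 to 8.63) for Vha16-5. Without the filter, limma gave adjusted p = 0.111 and 0.214. Vha16-3 had 0, 3 and 1 reads against 0 and 1, and Vha16-2 had 0, 0 and 0 against 0 and 1, too few for any difference to be detectable at this depth. An antisense RNA shares 84.5% of the exon bases of Vha16-2. Groups that did not overlap were found for 3 low members with the knockdown higher (Vha100-4, Vha16-4 and Vha16-5) and for 1 with the knockdown lower (Vha100-3), beside 16.6% and 16.9% of the 6232 genes with reads that the filter left out.

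Several extra copies lie beside an abundant gene. Vha68-3 begins 178 bases beyond the 3′ end of Vha68-2 on the same strand of chromosome 2L, and the control FPKM of Vha68-2 was 441 times higher. Vha68-3 had 20, 18 and 23 reads in the controls and 21 and 44 in the knockdown, with only knockdown b outside the control range in CPM. Its FPKM ratio of knockdown over control was 4.50 whereas its ratio of normalized counts was 1.69, so the tables differed on its size. VhaPPA1-2 lies 2052 bases beyond VhaPPA1-1 on the same strand of chromosome 3R, and had 15, 10 and 9 reads against 14 and 26. Again only knockdown b was outside the control range, and the ratio of summed depth-scaled reads was 1.78 (1.101 to 2.91, counting error only). In these pairs the scarce gene is downstream of the abundant one, and reads that run on from the abundant gene were not separated here.

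The remaining low members showed no shared direction. Vha100-3 had 13, 6 and 6 reads in the controls and 5 and 1 in the knockdown, with a ratio of summed depth-scaled reads of 0.364 (0.122 to 0.909, counting error only). It lies inside sano on the opposite strand, and its FPKM was 0.0221 in the controls and listed at 0 in the knockdown, although its reads corresponded to 0.222 CPM per kilobase in the controls. Vha36-2 had 7, 4 and 6 reads against 11 and 3, Vha14-2 had 4, 6 and 5 against 5 and 2, VhaAC39-2 had 2, 7 and 0 against 3 and 4, and VhaM9.7-d had 2, 0 and 2 against 3 and 1. For these 4 genes the groups overlapped or differed by a few reads, and the interval of each ratio contained 1. The 10 genes listed as testis markers summed to 54.6 to 59.8 CPM in the controls and 78.4 and 80.9 CPM in the knockdown. Whether each of them is restricted to the testis was not tested. The highest of these were vis and bam. In the controls vis had 24.4 to 27.5 CPM and bam 15.8 to 16.3 CPM. In the knockdown vis had 30.7 and 31.4 CPM and bam 22.0 and 35.2 CPM. Mst84Da was at 0 in all libraries, and aly, Mst98Ca and dj were at or below 0.35 CPM in each. Their part in the low Vha members was not tested.

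**Figure D5:**
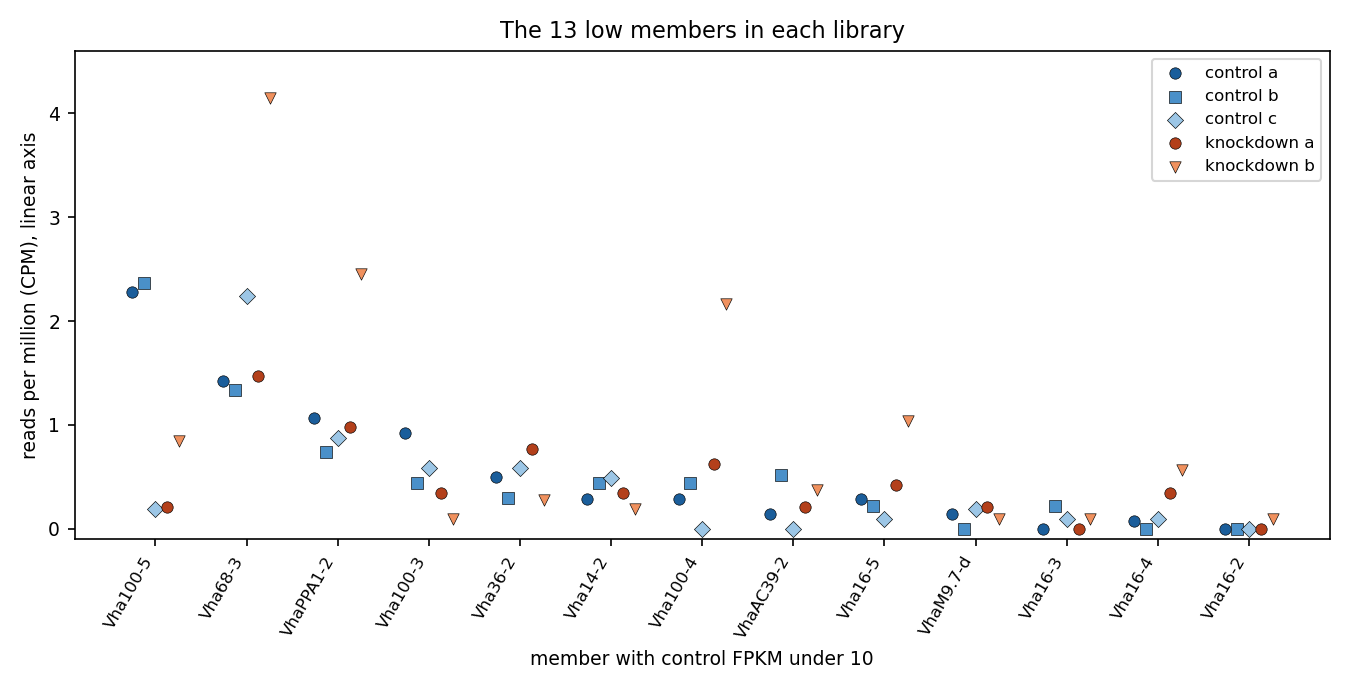
CPM of the 13 members below 10 FPKM in each of the 5 libraries (linear axis). Knockdown b is the highest library for Vha68-3, VhaPPA1-2, Vha100-4, Vha16-5, Vha16-4 and Vha16-2, and control a and b are the highest for Vha100-5.

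Genes that work with the pump were examined as a listed group. All 8 assembly factors and partners were found and tested, and 0 passed in either direction. ATP6AP2, counted among these 8, is the member VhaM8.9 given above. Rabconnectin, which promotes joining of V1 to V0, is formed by Rbcn-3A and Rbcn-3B. Rbcn-3A had 545, 487 and 379 CPM in the controls and 268 and 303 CPM in the knockdown (log2 fold change -0.68, SE 0.16, limma adjusted p = 0.0836). Rbcn-3B had 228, 207 and 180 CPM in the controls and 137 and 129 CPM in the knockdown (log2 fold change -0.60, SE 0.11, limma adjusted p = 0.0555). Both knockdown libraries lay below all controls for each gene, as they did for 24.6% of the 9346 genes tested. Both genes missed the threshold. Their exons sum to 11139 and 6716 bases, longer than those of every Vha member, and the 936 genes of 6000 bases or more had a median of -0.45. Mitf, the transcription factor that activates V-ATPase and lysosomal genes, had 32.8, 49.1 and 32.3 CPM against 50.3 and 45.4 CPM (log2 fold change 0.35, SE 0.19, limma adjusted p = 0.320). The groups overlapped. The ClC family genes ClC-a, ClC-b and ClC-c and the sodium-proton exchanger Nhe3 lay between -0.09 and 0.16 on the log2 scale.

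Genes of the compartments that the pump acidifies were examined in the same way. Of 14 lysosomal genes listed, 11 were found, 0 passed and 9 were above 0, with a median log2 fold change of 0.09. The proteases cathD (0.06), Cp1 (0.05) and CtsB1 (0.10) and the membrane protein Lamp1 (0.17) were among them. Of 8 genes listed for nutrient sensing at the lysosome, 7 were found and 6 were tested. Of these 6, 0 passed and all 6 were above 0, with a median of 0.16. The gene found but not tested was slif. It had 7.62, 7.78 and 7.51 CPM in the controls and 9.08 and 4.34 CPM in the knockdown, on both sides of the controls. All 5 vesicular transporters, which use the proton gradient to load transmitter, were below 0, with a median of -0.30. Of these, Vmat, the monoamine transporter, passed the test, with 240, 233 and 224 CPM in the controls and 153 and 168 CPM in the knockdown (log2 fold change -0.52, SE 0.09, limma adjusted p = 0.0473). VAChT (acetylcholine, -0.47, adjusted p = 0.0725) and VGlut (glutamate, -0.30, adjusted p = 0.158) did not pass in limma. VGAT and prt were at -0.05 and -0.16. The exons of Vmat, VAChT and VGlut sum to 8134, 7098 and 5716 bases, and those of VGAT and prt to 2700 and 2177. Among the genes of 6000 bases or more 6.62% were called lower, beside 1.54% of all genes, and their median was -0.45. The 6 nutrient-sensing genes tested had exons of 543 to 2533 bases. Over all genes tested the median was 0.13 under 1300 bases and 0.08 from 1300 to 2500 bases. The part of exon length in these directions was not tested. When control a or control b was left out, limma called 0 genes lower, Vmat included. Among the listed complexes, 0 of 33 proteasome genes and 0 of 8 mitochondrial ATP synthase genes passed, with medians of 0.09 and 0.05.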

How the data were processed

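Whole CNS RNA from 3 control and 2 IP3R knockdown libraries was compared. The authors aligned reads with TopHat2 2.0.11, removed duplicates, and deposited 3 tables of group values. The deposited FPKM values are 1 per group, from Cuffdiff 2.2.0. The normalized counts that the authors deposited (a signal) are DESeq means over all libraries and over each group. The log2 values the authors deposited are edgeR's average log2 CPM, for the genes that passed their filter. Their own fold changes and p-values were not used. The mean over all libraries equalled 3 times group A plus 2 times group B divided by 5, so group A was read as control.

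Each deposited group mean is a sum of whole reads divided by size factors. Solving for these, with the deposited log2 values, gave 1 whole-number solution for 16678 of 16680 genes. Size factors recomputed from these reads differed by at most 0.011%. This step, and all tests on the reads, were added after the files had been seen. The members and lists were chosen with earlier results of these data known.

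Reads were scaled to effective library sizes of 10.3 to 14.3 M (CPM) and tested with limma 3.58.1 (R 4.3.3, voom weights, 9346 genes, Benjamini-Hochberg adjustment over all). The study's methods call the libraries biological replicates. Reads are PCR-amplified, with duplicates removed, which can compress high values. Intervals on low read sums are exact (Clopper-Pearson, 95%). Abundant members had a control FPKM of at least 10. Every member is named. Exon lengths and dm6 positions came from the Ensembl BDGP6 annotation. Columns of unassigned samples numbered 0.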

Additional observations from a re-analysis of the deposited data

How the results depend on the processing

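No paired analysis was possible because the recovered libraries carry no replicate number. The count of members lower by 25% or more in both tables was 3, and it became 0 when an FPKM of at least 1 in either group was required and ranged from 1 to 3 with each library left out. The count of members higher was 6, and it became 10 at a threshold of 10% and ranged from 4 to 6 with each library left out. In limma 0 members were called in either direction with each library left out and under size-factor scaling, limma-trend, no filter and depth as a covariate. The median log2 ratio of the abundant members moved by less than the spread between control libraries (SD 0.15) in each alternative. That SD comes from the same controls, and leaving 1 of them out can hardly move the median by more. For those settings the comparison therefore says nothing about stability. By normalized counts the median ranged from -0.10 to 0.14 with each library left out, so its sign is not settled. Centred on all genes it was -0.01 by both FPKM and normalized counts. Over all genes the limma calls depended on single libraries. Without control c 1356 genes were lower and 125 higher, in place of 144 and 17. Without knockdown a they were 258 and 18, without knockdown b 51 and 6, and without control a or control b 0 lower and 1 higher. With depth as a covariate 319 were lower and 39 higher, with limma-trend 249 and 15, and without the filter 196 and 52. When 1 knockdown library was left out, the remaining one was assumed to vary like the controls. Low members had at most 44 reads in a library, which limits any statement on them.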
